A study of Homo sapiens with 10 samples.

Results

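MDSL is a human cell line that derives from myelodysplastic disease. Its untreated array was set against the untreated arrays of 3 other myeloid lines: HL60, an acute myeloid leukaemia line, SKM1, which also derives from myelodysplastic disease, and K562, a chronic myeloid leukaemia line. These are 4 of the 10 single-colour arrays of the series. Of the others, 4 hold the same lines after 96 hours of OR21, a hypomethylating compound, at 100 nM for MDSL and SKM1 and at 500 nM for HL60 and K562. The last 2 hold untreated HL60 derivatives labelled AZA resistant and OR21 resistant. The labels give 96 hours for the untreated arrays too. MDSL grew in RPMI-1640 with 10% serum, 2-mercaptoethanol and interleukin-3 at 100 U/mL, SKM1 in RPMI-1640 with 10% serum, and HL60 in IMDM with 20% serum, while the labels name no medium for K562. Line, medium, serum and cytokine differ together, so their parts in a difference cannot be told apart. Each line had 1 untreated array, and whether separate cultures were used is not stated.

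Values are log2 intensities. Levels under a common floor of 5.43 log2, the highest background median of the 10 arrays, were raised to it before differences were taken, so a difference from a line at the floor is a minimum. A gene was counted as apart in MDSL when it differed at least 2-fold, that is by 1 log2, in the same direction from each of the other 3 untreated lines. The gap is the difference from the nearest of those lines. By this rule 742 of 17687 genes (4.2%) were higher and 789 (4.46%) were lower in MDSL, 1531 in all. Because all 3 comparisons share the MDSL array, they are not independent of each other.

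Blood stem and progenitor cells carry surface proteins such as CD34 and lose them as they mature into red cells, platelets, granulocytes, monocytes or mast cells. Interleukin-3, a cytokine for early myeloid cells, acts through a receptor of an alpha chain and a shared beta chain and signals through JAK2 and STAT5. Myelodysplastic disease is a clonal disorder of such cells, in which parts of chromosomes 5 and 7 are often lost.

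The array of untreated MDSL was checked first. The median of its background probe sets, 4.98 log2, was under those of the remaining 9 arrays (5.41 to 5.43). This lower value came mostly from 1 of the 23 background probe sets: without it the median was 5.21 on the MDSL array and 5.07 to 5.33 on the other 9. Against the other 3 untreated lines alone, at 5.25 to 5.33, MDSL was still the lowest. MDSL lay within the range of the other 9 arrays in 20 of the background probe sets, under it in 2 and over it in 1. Negative control probe sets had a median of 4.66 on the MDSL array against 4.35 to 4.72 on the other 9, and the share of genes at or under the floor was 32.8% in MDSL against 32.8% to 35.6% in the other 3 lines. The gene median was 6.86 log2 in MDSL against 6.63 to 6.90 in the other 3 lines.

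The same size rule gave 302 higher and 284 lower genes for HL60 (1.71% and 1.61%), 486 and 153 for SKM1 (2.75% and 0.865%), and 789 and 839 for K562 (4.46% and 4.74%). The number of genes apart in MDSL was therefore larger than in HL60 and SKM1 and close to that in K562. At 4-fold, 258 genes were higher (1.46%) and 143 lower (0.809%) in MDSL. Against single lines, MDSL was at least 2-fold higher for 1837 genes and lower for 2142 relative to HL60 (10.4% and 12.1%), for 1559 and 1997 relative to SKM1 (8.81% and 11.3%), and for 2247 and 2609 relative to K562 (12.7% and 14.8%). Of the 742 higher genes, 63 were at the floor in all 3 other lines and 228 in at least 1. Nearest the threshold, DYRK1A was just inside with a gap of 1.003 and PNPLA6 just outside with 0.9997, while FBXO30 was inside with -1.0007 and CCDC77 outside with -0.9983.

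The only test over lines used limma on 8 arrays, the untreated and OR21-treated arrays of the 4 lines, with OR21 as a term. A gene passed when the difference of MDSL from each of the 3 lines had an adjusted p under 0.05 with 1 sign. The spread in that test is how far a line difference varied between the untreated and the treated arrays, so it mixes array noise with responses that differ between lines. In limma 115 genes (0.65%) passed as higher and 99 (0.56%) as lower in MDSL. Of the genes apart on the untreated arrays, 87 of the 742 higher (11.7%) and 71 of the 789 lower (9.00%) passed. The fit holds the same untreated arrays by which these genes were picked. Its p-values for them are therefore not independent of the choice and give no separate support. Without the OR21-treated HL60 array, whose hybridisation spikes averaged 11.71 log2, against 11.10 for untreated MDSL and 10.92 to 10.98 for the other untreated lines, the counts were 30 and 48. They were higher under other settings: 410 and 372 with no floor, and 391 and 375 without dim genes. A fit over 6 untreated arrays counted both resistant HL60 derivatives as HL60, so its spread came from HL60 arrays only. MDSL, SKM1 and K562 had 1 array each there, so its counts are not given. At an unadjusted p under 0.05 against all 3 lines, limma had 817 higher (4.62%) and 742 lower genes (4.20%). Each limma p given for a gene is the largest of its 3 adjusted p-values from this fit. For some genes, CYTL1, VSTM1 and HPGDS among them, the other lines were under the floor on untreated and treated arrays. Raised to the floor, those lines had no spread, and only the MDSL arrays gave one. The small p-values of such genes cannot be ranked against those of other genes.

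The gene with the widest gap was CD34, the surface sialomucin of blood stem and progenitor cells. Its level was 14.68 log2 in untreated MDSL, against 5.12 in HL60, 4.71 in SKM1 and 5.58 in K562, a gap of 9.11 (limma adjusted p = 0.036). CYTL1, a secreted protein first found in CD34-positive cells, had 14.09 in MDSL against 4.07, 5.24 and 3.14 in HL60, SKM1 and K562, a gap of at least 8.66 (limma adjusted p = 0.000235). FCER1A, the alpha chain of the high-affinity IgE receptor of mast cells and basophils, had 13.27 in MDSL against 3.81, 3.84 and 4.21 in HL60, SKM1 and K562 (gap at least 7.84, limma adjusted p = 0.0437). All 3 genes were bright in MDSL and at or near background in the other untreated lines. CD34 stayed high in OR21-treated MDSL at 13.71, against 5.76, 6.82 and 5.40 in treated HL60, SKM1 and K562.

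The promoters of the 3 genes farthest apart in each direction are shown because OR21 belongs to a class of drugs that acts on CpG methylation, and the genes differ in how many CpG sites lie before their start. Each is the 250 bases upstream of the RefSeq start in build GRCh38.p14, 5′ to 3′ on the gene's strand, with every CpG in capitals. The higher genes are CD34 (chr1:207911126-207911375, minus strand, 14 CpG), CYTL1 (chr4:5019459-5019708, minus strand, 11 CpG) and FCER1A (chr1:159302086-159302335, plus strand, 0 CpG). The lower genes are ANXA5 (chr4:121696981-121697230, minus strand, 31 CpG), PSAT1 (chr9:78296875-78297124, plus strand, 30 CpG) and ASNS (chr7:97872409-97872658, minus strand, 24 CpG).
CD34: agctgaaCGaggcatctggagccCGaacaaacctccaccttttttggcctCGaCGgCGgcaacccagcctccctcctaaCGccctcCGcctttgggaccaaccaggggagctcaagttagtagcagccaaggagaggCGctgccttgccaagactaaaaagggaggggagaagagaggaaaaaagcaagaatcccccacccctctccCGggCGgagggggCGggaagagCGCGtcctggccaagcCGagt
CYTL1: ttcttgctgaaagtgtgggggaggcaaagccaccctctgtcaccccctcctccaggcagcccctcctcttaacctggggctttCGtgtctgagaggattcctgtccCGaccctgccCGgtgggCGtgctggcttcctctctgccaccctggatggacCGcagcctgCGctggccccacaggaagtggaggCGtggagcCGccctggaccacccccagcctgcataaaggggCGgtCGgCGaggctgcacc
FCER1A: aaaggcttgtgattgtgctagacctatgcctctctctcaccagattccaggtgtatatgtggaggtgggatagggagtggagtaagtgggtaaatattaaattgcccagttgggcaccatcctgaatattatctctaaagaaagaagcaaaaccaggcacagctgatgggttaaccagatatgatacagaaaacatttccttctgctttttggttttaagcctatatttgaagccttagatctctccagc
ANXA5: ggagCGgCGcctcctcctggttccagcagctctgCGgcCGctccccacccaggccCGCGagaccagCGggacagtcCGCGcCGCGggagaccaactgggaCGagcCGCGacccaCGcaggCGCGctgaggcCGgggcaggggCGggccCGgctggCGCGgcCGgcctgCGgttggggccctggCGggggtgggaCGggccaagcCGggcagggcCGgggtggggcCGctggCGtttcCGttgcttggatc
PSAT1: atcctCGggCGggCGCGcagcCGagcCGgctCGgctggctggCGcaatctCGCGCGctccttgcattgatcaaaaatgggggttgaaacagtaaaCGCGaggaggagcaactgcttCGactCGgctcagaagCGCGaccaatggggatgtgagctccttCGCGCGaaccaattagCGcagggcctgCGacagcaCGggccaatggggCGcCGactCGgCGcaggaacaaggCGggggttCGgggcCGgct
ASNS: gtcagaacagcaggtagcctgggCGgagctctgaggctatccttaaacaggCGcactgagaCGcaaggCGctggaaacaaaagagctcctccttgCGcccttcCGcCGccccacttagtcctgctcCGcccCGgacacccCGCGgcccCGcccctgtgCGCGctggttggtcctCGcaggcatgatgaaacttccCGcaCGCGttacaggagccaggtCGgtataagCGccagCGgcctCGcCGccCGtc

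The other genes with the widest gaps upward were mostly surface and secreted proteins. CD96, an immunoglobulin-family receptor known from T and NK cells and from leukaemic stem cells, was at 12.23 log2 in MDSL against 3.58 in HL60, 4.36 in SKM1 and 5.34 in K562 (limma adjusted p = 0.0374). VSTM1, an inhibitory receptor of myeloid cells, was at 11.78 in MDSL against 3.82, 4.19 and 3.84 in HL60, SKM1 and K562 (limma adjusted p = 0.000484). CD84, a SLAM-family adhesion receptor, was at 14.10 in MDSL against 7.96, 7.99 and 5.86 in HL60, SKM1 and K562 (limma adjusted p = 0.0296). In each the other lines lay far under MDSL, and for CD84 K562 lay lowest. TP53INP1, a stress protein induced by p53, was at 12.75 in MDSL against 4.30, 6.09 and 4.99 in HL60, SKM1 and K562 (limma adjusted p = 0.0187). MEX3B, an RNA-binding protein, had a gap of 6.64 and ENPP2, the enzyme that makes lysophosphatidic acid, a gap of at least 6.60, but neither passed (limma adjusted p = 0.0626 and 0.141). For ENPP2 the treated HL60 array reached 8.68 log2, against 11.25 in treated MDSL.

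**Figure D1:**
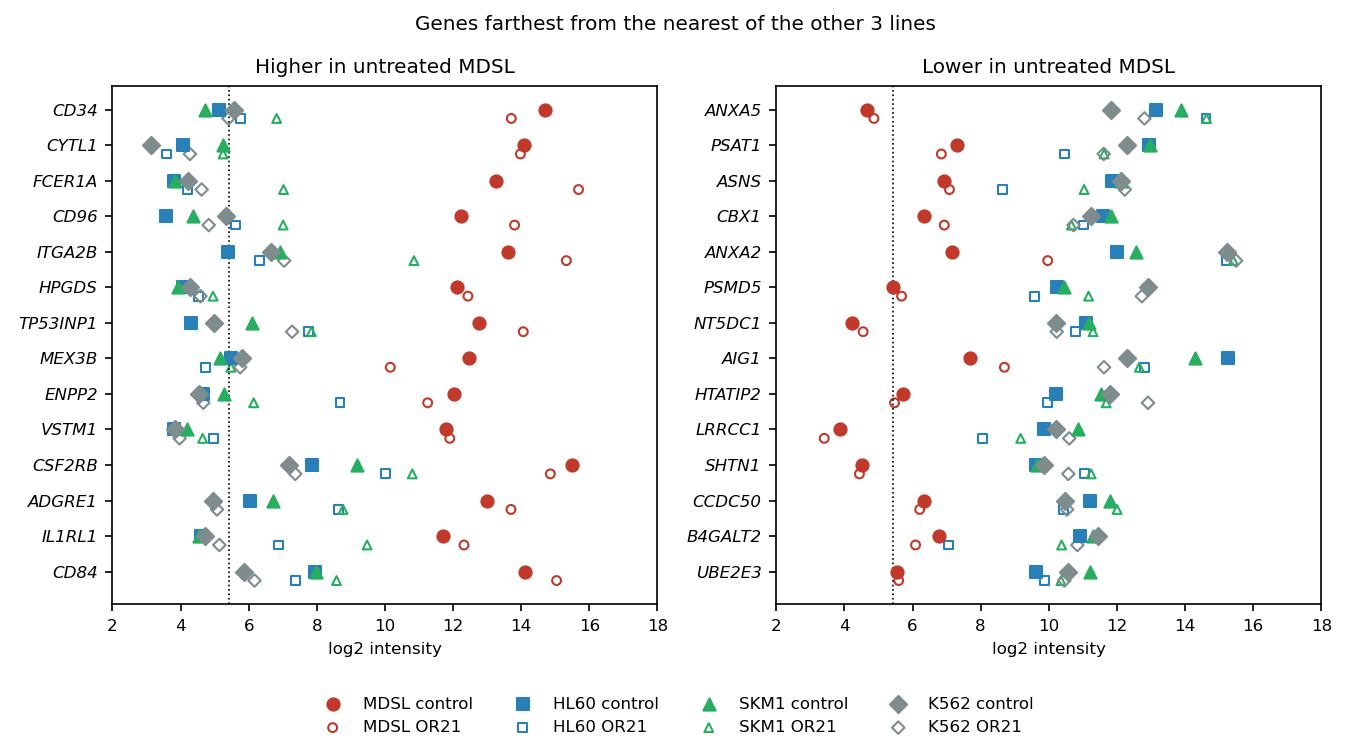
Levels of the 14 genes with the widest gap upward (left) and downward (right) in untreated MDSL, as log2 intensity on a horizontal axis with 1 row per gene; filled marks are untreated and hollow marks OR21-treated arrays, with MDSL as red circles, HL60 as squares, SKM1 as triangles and K562 as diamonds, and the dotted line is the floor of 5.43. The red circles stand apart from all other filled marks in every row, and for ITGA2B the treated SKM1 array (10.85) moves toward MDSL.

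Stem and progenitor genes were the list with the most members that passed the test. Of 33 measured, 14 (42.4%, against 4.2% of all genes) were higher than in each other untreated line and 0 lower. The median difference from the mean of the 3 lines was 1.12 log2 against 0.00 over all genes, and 5 (15.15%, against 0.65% of all genes) passed limma. The median was 0.41 with the floor raised to 7.11 log2, the 95th percentile of background, and 2.04 without dim genes. Besides CD34 these were SPINK2, a serine protease inhibitor of early progenitors, ERG, an ETS transcription factor of stem cells, ANGPT1, a ligand of the TIE2 receptor, and NRIP1, a nuclear receptor corepressor. SPINK2 had 10.20 log2 in MDSL against 4.73 in HL60, 5.67 in SKM1 and 5.74 in K562 (limma adjusted p = 0.00546). ERG had 12.24 in MDSL against 8.44, 6.45 and 5.57 in HL60, SKM1 and K562 (limma adjusted p = 0.0392). The receptor tyrosine kinases of early cells did not follow CD34. KIT was at 12.54 in MDSL against 4.27 in HL60, 12.55 in SKM1 and 5.56 in K562, so MDSL and SKM1 were at nearly the same level. FLT3 was at 8.84 in MDSL against 7.44, 10.31 and 4.58 in HL60, SKM1 and K562, with SKM1 above MDSL. SOX4, a transcription factor of progenitors and leukaemia, was at 12.36 in untreated MDSL against 8.06, 8.00 and 7.11 in HL60, SKM1 and K562, but only at 9.13 in treated MDSL, and did not pass (limma adjusted p = 0.254).

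Genes of the interleukin-3 receptor and its JAK-STAT5 signal were higher for 7 of 23 measured (30.4%, against 4.2% of all genes) and lower for 0. Their median difference was 0.78 log2. IL3RA, the alpha chain that binds the cytokine, was at 12.01 in MDSL against 4.73 in HL60, 5.91 in SKM1 and 3.45 in K562 (gap 6.09, limma adjusted p = 0.0293). CSF2RB, the beta chain shared with the IL-5 and GM-CSF receptors, was at 15.49 in MDSL against 7.86, 9.18 and 7.17 in HL60, SKM1 and K562 (gap 6.32, limma adjusted p = 0.0846). Both chains were far above the other lines, while CSF2RA, the GM-CSF receptor alpha chain, was at 9.26 in MDSL against 8.71 in SKM1 and was not apart. Among known STAT5 targets, the kinase PIM1 was at 14.97 in MDSL against 6.96, 6.73 and 13.24 in HL60, SKM1 and K562, and CISH, a feedback inhibitor, at 10.96 against 7.92, 6.53 and 9.89. In both, K562 was the nearest line. For SOCS2, another feedback inhibitor, K562 was above MDSL, at 11.57 in MDSL against 12.80 in K562, with HL60 at 4.58 and SKM1 at 5.47. Leaving out K562 the median of the list was 1.60. MDSL was the only one of the 4 lines whose labels name interleukin-3 in the medium, and its part in these values was not tested.

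Mast cell, basophil and eosinophil genes were higher for 12 of 27 measured (44.4%, against 4.2% of all genes) and lower for 0. Their median difference was 2.11 log2, or 1.08 with the floor at 7.11. Next to FCER1A, HPGDS, the prostaglandin D2 synthase of mast cells, was at 12.12 in MDSL against 4.08 in HL60, 3.93 in SKM1 and 4.29 in K562 (limma adjusted p = 0.00474). CPA3, mast cell carboxypeptidase, was at 8.42 in MDSL against 4.00, 5.11 and 4.65 in HL60, SKM1 and K562 (limma adjusted p = 0.0467). These 3 passed the test, 11.1% of the list against 0.65% of all genes. HDC, which makes histamine, was at 11.01 in untreated MDSL against 5.82, 5.96 and 6.19 in HL60, SKM1 and K562, but with OR21 SKM1 reached 12.26 against 11.35 in MDSL (limma adjusted p = 0.64). IL1RL1, the IL-33 receptor, had a gap of at least 6.28 and IL5RA, the IL-5 receptor alpha chain, one of at least 3.79, and neither passed (limma adjusted p = 0.161 and 0.194). The granule genes were uneven: CLC, the Charcot-Leyden crystal protein, was at 16.82 in MDSL and 15.37 in SKM1, against 6.28 in HL60 and 6.36 in K562, while CMA1, chymase, was under the floor in all 4 untreated lines.

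**Figure D2:**
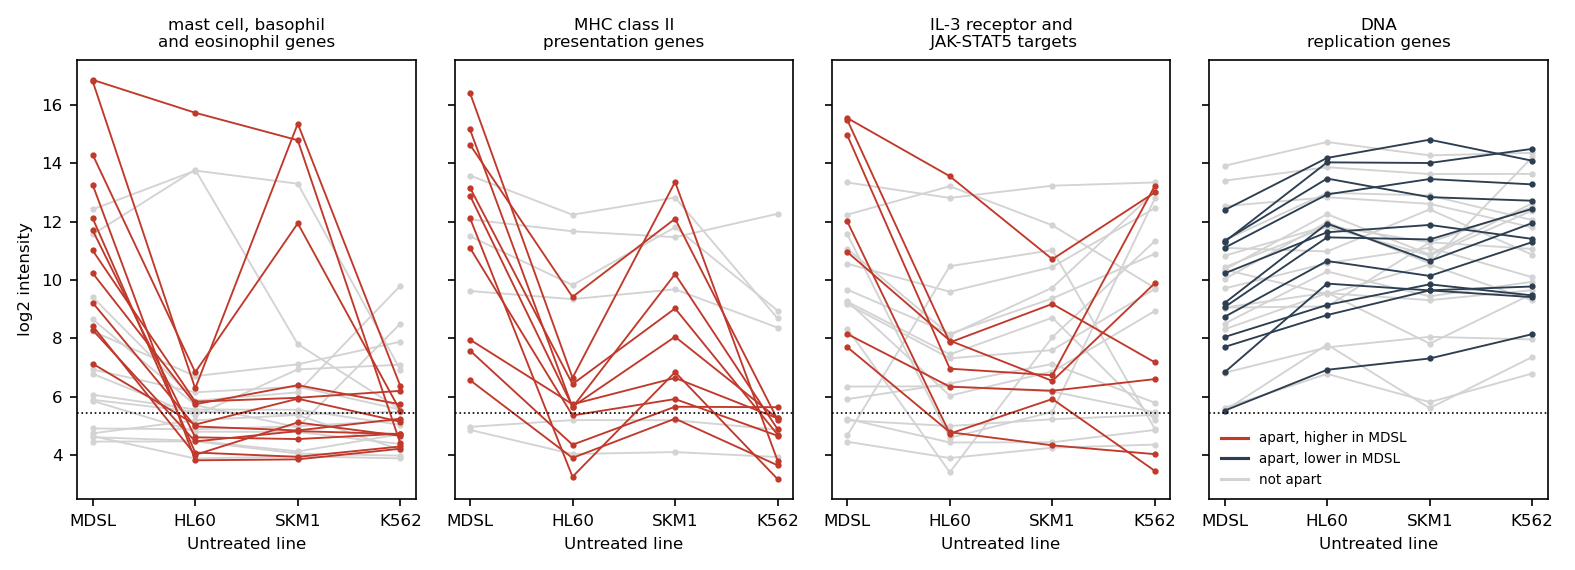
Log2 intensity of every measured member of 4 gene lists in the untreated lines, with MDSL at the left of each panel followed by HL60, SKM1 and K562 and 1 line per gene; red marks members apart and higher in MDSL, dark blue those apart and lower, grey the rest, and the dotted line is the floor of 5.43. In the mast cell panel 12 of 27 lines are red, in the MHC class II panel 10 of 16, in the IL-3 panel 7 of 23, and in the replication panel 12 of 30 are dark blue.

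Megakaryocyte and platelet genes were higher for 6 of 26 (23.1%, against 4.2% of all genes) and lower for 0, with a median difference of 0.00 log2. ITGA2B, the platelet integrin alpha chain, was at 13.62 in MDSL against 5.38 in HL60, 6.91 in SKM1 and 6.65 in K562 (limma adjusted p = 0.0997). RGS18, a regulator of G-protein signals in platelets, was at 14.15 in MDSL against 9.05, 7.02 and 4.33 in HL60, SKM1 and K562. The partner chain ITGB3 was under the floor in all 4 untreated lines, and PF4, platelet factor 4, was close to it in MDSL at 5.82. In limma 0 of the 26 passed, and 7 were higher at an unadjusted p under 0.05, against 4.62% of all genes. With OR21, 12 of the 26 genes were higher in MDSL than in each other treated line and 1 was lower. Of all genes, 4.58% were higher and 3.87% lower on the treated arrays. CLEC1B, a platelet receptor, was at 9.87 in treated MDSL against 3.58, 3.87 and 3.87 in treated HL60, SKM1 and K562, and under the floor in all 4 untreated lines.

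Erythroid genes did not set MDSL apart: 1 of 30 (3.33%, against 4.2% of all genes) was higher. This was CA2, carbonic anhydrase 2, at 15.52 in MDSL against 12.71 in HL60, 13.01 in SKM1 and 9.06 in K562. The list median was -0.48 log2 and 0.26 without K562. The erythroid and megakaryocyte factor GATA1 was at 10.99 in MDSL against 6.80 in HL60, 6.49 in SKM1 and 13.14 in K562, between the lines. GATA2, its partner in progenitors and mast cells, was at 11.60 in MDSL against 6.15, 7.64 and 10.60 in HL60, SKM1 and K562, a gap of 1.01 that sits at the threshold. Among the lineage transcription factors 6 of 37 (16.2%, against 4.2% of all genes) were higher and 0 lower. They included RUNX1, mutated in myeloid disease, at 14.35 in MDSL against 12.27, 12.95 and 10.32 in HL60, SKM1 and K562 (limma adjusted p = 0.0748), and IKZF2, a zinc finger factor of the Ikaros family, at 10.41 in MDSL against 4.82, 6.08 and 5.03 in HL60, SKM1 and K562 (limma adjusted p = 0.193). SPI1, the myeloid ETS factor PU.1, was at 11.79 in MDSL against 12.05, 11.38 and 7.51 in HL60, SKM1 and K562 and CEBPA, the granulocyte factor, at 10.45 against 11.29, 10.97 and 4.59, so for both only K562 stood away.

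Granule genes divided. MPO, myeloperoxidase of promyelocytes, was at 8.62 log2 in untreated MDSL against 17.01 in HL60, 17.08 in SKM1 and 6.23 in K562. PRTN3, proteinase 3, was at 8.51 in MDSL against 14.78, 15.43 and 5.93 in HL60, SKM1 and K562. In both MDSL lay far under HL60 and SKM1 and above K562, so neither counts as apart. AZU1, azurocidin, encoded beside PRTN3, was at 13.83 in MDSL against 14.21, 14.66 and 3.69 in HL60, SKM1 and K562 and lay close to HL60 and SKM1. PRSS57, another serine protease of the azurophil granule, was at 12.50 in MDSL against 6.68, 8.23 and 6.04 in HL60, SKM1 and K562 (limma adjusted p = 0.0616). Of the 22 primary granule genes, 4 (18.2%, against 4.2% of all genes) were higher and 0 lower. Their median difference of 0.75 log2 became -0.16 without K562. In OR21-treated MDSL MPO was at 13.11 against 15.97, 15.99 and 5.28 in treated HL60, SKM1 and K562. Monocyte and phagocyte genes were higher for 3 of 38 (7.89%, against 4.2% of all genes).

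MHC class II genes, whose products present peptides to helper T cells, were higher for 10 of 16 and lower for 0. That was 62.5%, the largest share of any list, against 4.2% of all genes. Their median difference was 2.18 log2, or 5.51 without dim genes. CIITA, the master activator of the class, was at 11.10 in MDSL against 5.35 in HL60, 5.91 in SKM1 and 4.65 in K562. HLA-DRA, the DR alpha chain, was at 16.42 in MDSL against 6.64, 13.36 and 3.79 in HL60, SKM1 and K562, and HLA-DPB1 at 15.17 against 5.63, 10.20 and 4.88. SKM1 was nearest to MDSL in all 3 genes, and for CIITA HL60 and K562 were under the floor. On the treated arrays MDSL and SKM1 were closer: CIITA was at 8.34 in treated MDSL and 7.73 in treated SKM1, and HLA-DRA at 15.19 and 14.76. In limma 0 of the 16 passed, and 4 were higher at an unadjusted p under 0.05, against 4.62% of all genes. HLA-DRB1 and HLA-DRB5 are near-identical copies, so the split of signal between them is uncertain.

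Interferon-stimulated genes were higher for 11 of 46 (23.9%, against 4.2% of all genes) and lower for 0. Their median difference was 1.08 log2, or 0.45 with the floor at 7.11. IFI6, an inhibitor of apoptosis, was at 12.77 in MDSL against 7.92 in HL60, 9.50 in SKM1 and 8.51 in K562 (limma adjusted p = 0.0907), and CMPK2, a mitochondrial nucleotide kinase, at 11.82 against 5.64, 8.52 and 7.70 (limma adjusted p = 0.16). IFI44 was at 8.27 in MDSL against 4.77, 4.41 and 4.39 in HL60, SKM1 and K562. In limma 0 of the 46 passed, and 6 were higher at an unadjusted p under 0.05, against 4.62% of all genes. Integrins and other adhesion genes were higher for 7 of 34 (20.6%, against 4.2% of all genes). Among them was ITGA4, the alpha chain of VLA-4, at 12.99 in MDSL against 10.90, 10.83 and 6.87 in HL60, SKM1 and K562. All 4 adhesion G-protein-coupled receptors of the ADGRE family were higher, against 4.2% of all genes. ADGRE1 had the widest gap, at 13.00 in MDSL against 6.04, 6.71 and 4.96 in HL60, SKM1 and K562 (limma adjusted p = 0.0691). For ADGRE2, ADGRE3 and ADGRE5 the limma adjusted p was 0.517, 0.639 and 0.569. On the treated arrays 1 of the 4 was apart as higher, against 4.58% of all genes, and ADGRE3 was at 11.70 in treated MDSL against 11.86 in treated HL60. In the SIGLEC family of sialic acid receptors 3 of 9 were higher (33.3%, against 4.2% of all genes) and 0 lower. SIGLEC10 was at 13.19 in MDSL against 7.37, 7.36 and 6.37 in HL60, SKM1 and K562. None of the 3 passed, with a limma adjusted p of 0.0652, 0.0639 and 0.0849 for SIGLEC10, SIGLEC12 and SIGLEC6. Both families were looked up after the values were seen, and their members resemble each other in sequence.

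**Figure D3:**
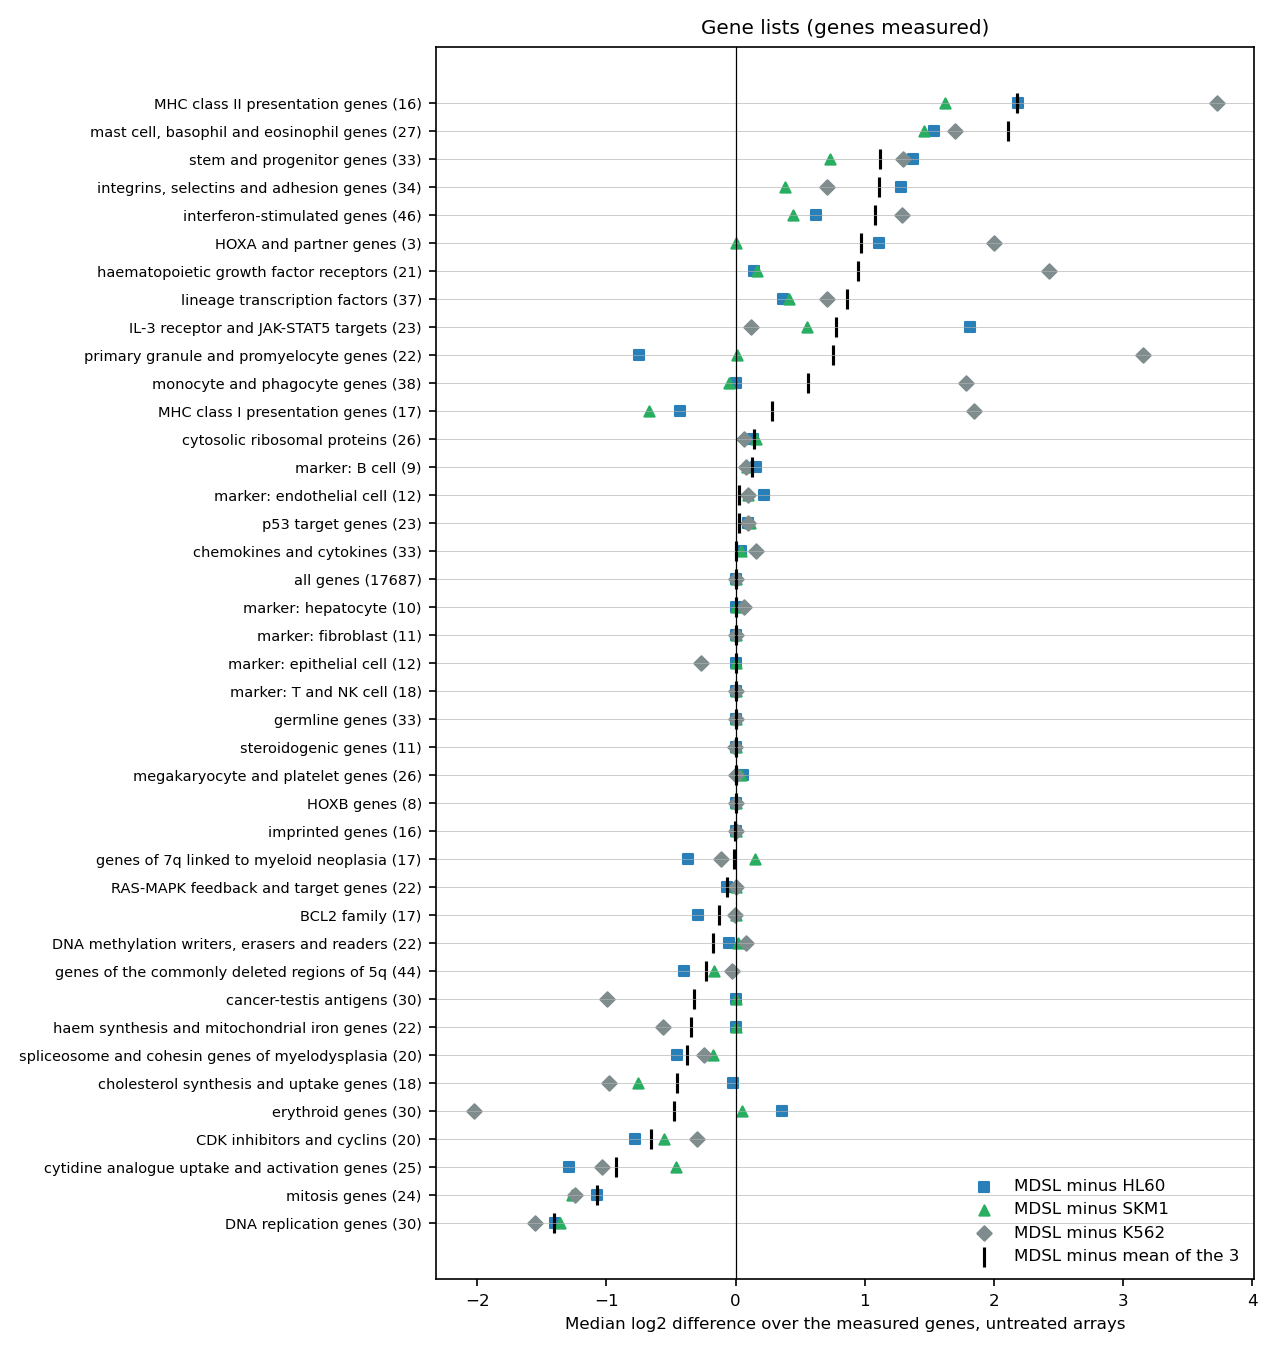
Median log2 difference over the measured genes of each list on the untreated arrays, with squares for MDSL minus HL60, triangles for MDSL minus SKM1, diamonds for MDSL minus K562 and a bar for MDSL minus the mean of the 3; lists run from the highest bar at the top to the lowest, and all genes sit at 0.00. MHC class II (2.18) and mast cell genes (2.11) lie at the top with every mark above 1, replication (-1.41) and mitosis genes (-1.07) at the bottom with every mark under -1, and the granule and erythroid lists span 0.

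The gene with the widest gap downward was ANXA5, an annexin. Annexins are calcium-dependent membrane-binding proteins. ANXA5, which binds phosphatidylserine, was at 4.67 log2 in MDSL against 13.14 in HL60, 13.89 in SKM1 and 11.82 in K562, a gap of at least 6.40 downward (limma adjusted p = 0.0227). ANXA6, on chromosome 5, was at 3.87 in MDSL against 14.34, 12.84 and 8.48 in HL60, SKM1 and K562 (limma adjusted p = 0.0223). ANXA2, which binds plasminogen with S100A10, was at 7.14 in MDSL against 12.01, 12.56 and 15.24 in HL60, SKM1 and K562 (limma adjusted p = 0.0852). ANXA5 and ANXA6 were under the floor in untreated MDSL and also in treated MDSL, at 4.87 each, whereas ANXA2 was at 9.97 in treated MDSL. Of 12 measured annexins, 3 were apart as lower and 0 as higher, with a family median of 0.00. ANXA9 passed limma as higher (limma adjusted p = 0.0358), at 8.28 in MDSL against 7.14, 6.68 and 7.29 in HL60, SKM1 and K562, a gap of 0.98 that missed the 2-fold threshold. The others differed: ANXA11 was at 13.59 in MDSL against 13.50, 13.30 and 13.30 in HL60, SKM1 and K562, and ANXA1 at 13.39 against 15.20, 9.28 and 15.46. The annexins were counted as a family after the values were seen.

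Enzymes of serine and asparagine synthesis were next. PSAT1, the transaminase of serine synthesis, was at 7.32 in MDSL against 12.95 in HL60, 12.98 in SKM1 and 12.28 in K562 (limma adjusted p = 0.0556). ASNS, asparagine synthetase, was at 6.91 in MDSL against 11.85, 12.13 and 12.11 in HL60, SKM1 and K562 (limma adjusted p = 0.207). PHGDH, the first enzyme of serine synthesis, was at 6.06 in MDSL against 10.49, 11.95 and 8.01 in HL60, SKM1 and K562. All 3 were lower in MDSL, while PSPH, the phosphatase of the same path, missed the 2-fold threshold with a gap of -0.98 and SHMT2, the mitochondrial serine hydroxymethyltransferase, had -0.23. In treated HL60 ASNS was at 8.65, against 7.08 in treated MDSL, so its gap was -1.57 on the treated arrays. These enzymes were grouped after the values were seen.

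Of the remaining genes with the widest gaps downward, CBX1, the heterochromatin protein HP1 beta, was at 6.33 in MDSL against 11.58 in HL60, 11.82 in SKM1 and 11.23 in K562 (limma adjusted p = 0.0481). NT5DC1, a protein with a nucleotidase domain, was at 4.21 in MDSL against 11.09, 11.19 and 10.21 in HL60, SKM1 and K562 (limma adjusted p = 0.00583). PSMD5, a chaperone of proteasome assembly, was at 5.42 in MDSL against 10.23, 10.45 and 12.93 in HL60, SKM1 and K562 (limma adjusted p = 0.0354). In these 3 MDSL was at or within 1 log2 of the floor and the other lines were bright. UBE2E3, a ubiquitin-conjugating enzyme (limma adjusted p = 0.0302), HTATIP2 (limma adjusted p = 0.0369), CCDC50 (limma adjusted p = 0.0268) and SHTN1, a regulator of axon growth (limma adjusted p = 0.0429), also passed, while AIG1, LRRCC1 and B4GALT2, a galactosyltransferase, did not (limma adjusted p = 0.107, 0.109 and 0.292). Of the 789 lower genes, 52 were at the floor in untreated MDSL. In OR21-treated MDSL 41 of these were still at the floor and 2 (3.85%) were at least 2-fold higher, against 98 of 5805 (1.69%) of all genes at the floor in untreated MDSL.

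DNA replication genes were lower for 12 of 30 (40.0%, against 4.46% of all genes) and higher for 0. Their median difference was -1.41 log2, and -1.40, -1.36 and -1.55 against HL60, SKM1 and K562 taken singly. MCM7, a subunit of the replicative helicase, was at 11.31 in MDSL against 14.04 in HL60, 14.02 in SKM1 and 14.50 in K562 (limma adjusted p = 0.0992). ORC6, of the origin recognition complex, was at 6.83 in MDSL against 9.88, 9.64 and 9.41 in HL60, SKM1 and K562 (limma adjusted p = 0.0601). Other helicase subunits were not apart: MCM5 was at 12.53 in MDSL against 12.84, 12.61 and 11.80 in HL60, SKM1 and K562, and MCM4 at 13.41 against 13.87, 13.64 and 13.64. Mitosis genes were lower for 10 of 24 (41.7%) and higher for 0, with a median of -1.07. CDK1, the mitotic kinase, was at 10.36 in MDSL against 12.51, 12.49 and 13.66 in HL60, SKM1 and K562, and MKI67, the proliferation antigen, at 11.65 against 12.90, 12.47 and 11.87 and not apart. On the treated arrays 18 of the 30 replication genes and 21 of the 24 mitosis genes were lower in MDSL, against 3.87% of all genes. Their medians there were -2.29 and -2.74. In limma 0 of the 30 and 0 of the 24 passed, while 11 and 8 were lower at an unadjusted p under 0.05, against 4.20% of all genes. Of the cyclins and CDK inhibitors 5 of 20 were lower, and CCND2, a D-type cyclin, was higher at 15.56 in MDSL against 13.56, 10.71 and 13.01 in HL60, SKM1 and K562.

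The genes that take up and activate cytidine analogues bear on baseline handling of drugs of the OR21 class. Of 25 measured, 9 (36.0%) were lower in MDSL and 2 (8.0%) higher, against 4.46% and 4.2% of all genes, and the median was -0.92 log2. CTPS2, a CTP synthase, was at 5.62 in MDSL against 9.56 in HL60, 10.62 in SKM1 and 11.30 in K562 and alone passed (limma adjusted p = 0.0273). SLC29A1, the nucleoside transporter ENT1, was at 10.60 in MDSL against 12.40, 12.03 and 11.67 in HL60, SKM1 and K562, a gap of -1.06, and was not apart on the treated arrays. Of the kinases that start activation, DCK and UCK1 were not apart, and UCK2 was not among the measured genes. DCK, which phosphorylates deoxycytidine analogues, was at 10.73 in MDSL against 11.66, 11.16 and 9.82 in HL60, SKM1 and K562. UCK1, a uridine-cytidine kinase, was at 8.27 in MDSL against 8.45, 8.56 and 8.52 in these lines. CDA, cytidine deaminase, was under the floor in MDSL (2.99) and K562 (2.85), against 7.73 in HL60 and 5.89 in SKM1. SAMHD1, a dNTP hydrolase, was at 9.20 in MDSL against 11.84, 12.83 and 9.55 in HL60, SKM1 and K562. Several of the 9 lower genes, among them TYMS, RRM1, RRM2 and TK1, also serve nucleotide supply in S phase. TYMS, thymidylate synthase, was at 13.02 in MDSL against 15.02, 14.84 and 15.23 in HL60, SKM1 and K562.

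Of 22 genes that write, erase or read DNA methylation, 2 were higher and 1 lower in MDSL, against 4.2% and 4.46% of all genes. DNMT1, the maintenance methyltransferase, was at 11.38 in MDSL against 11.05 in HL60, 11.01 in SKM1 and 10.83 in K562. DNMT3A was at 7.14 in MDSL against 7.24, 6.93 and 9.22 in HL60, SKM1 and K562, and DNMT3B at 8.85 against 4.45, 7.17 and 10.43. UHRF1, which guides DNMT1 to newly copied DNA, was lower, at 10.09 in MDSL against 11.56, 12.16 and 11.37 in HL60, SKM1 and K562. TET2, which oxidises methylcytosine and is often mutated in myelodysplasia, was higher, at 10.39 against 9.18, 7.08 and 6.89, and so was IDH2, isocitrate dehydrogenase. In limma 0 of the 22 passed, and 1 was lower at an unadjusted p under 0.05, near the 4.20% of all genes.

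By chromosome, the 12029 genes whose mean level was over the floor had a median difference of -0.04 log2, with 5.92% higher and 6.56% lower. Chromosome 7 was lowest, with a median of -0.47 over 554 genes, of which 100 (18.1%) were lower and 15 higher in MDSL. Its median was -0.31, -0.31 and -0.55 against HL60, SKM1 and K562 singly and -0.54 on the treated arrays. Chromosome 6 had a median of -0.41 with 79 of 652 lower and 20 higher, and chromosome 5 of -0.31 with 54 of 515 lower and 21 higher. Both medians were lowest against HL60. Against HL60, SKM1 and K562 singly they were -0.58, -0.30 and -0.29 for chromosome 6 and -0.46, -0.18 and -0.25 for chromosome 5. HL60 itself had 0.42 on chromosome 6 and 0.30 on chromosome 5 against the mean of its other lines. At the top, chromosome 19 had a median of 0.38 with 101 of 899 genes higher and 13 lower, and chromosome 15 of 0.27 with 56 of 385 higher and 18 lower. On chromosome 21, 14 of 126 were higher, ERG and RUNX1 among them, and 0 lower. With the floor at 7.11 log2 the medians were -0.30 for chromosome 7, -0.26 for chromosome 6, 0.01 for chromosome 15 and 0.05 for chromosome 19. Chromosome shifts of this size were not particular to MDSL. Against the mean of its other lines, SKM1 had -0.61 on chromosome 12 and HL60 0.47 on chromosome 18. K562 had -0.43 on chromosome 13 and 0.36 on chromosome 7.

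Blocks of 25 neighbouring expressed genes in RefSeq order showed where on a chromosome the shift lay. Of 473 blocks, whose medians ran from -1.35 to 1.54, 49 were at -0.5 or lower. They held 13 of the 26 blocks of chromosome 6, 10 of the 22 of chromosome 7 and 6 of the 20 of chromosome 5, and at most 3 of any other chromosome. On chromosome 6 the lowest was the block from MED20 to ZNF318 (-0.93, and -0.88 on the treated arrays). On chromosome 7 the lowest were the block from GSAP to CYP51A1 (-1.35, and -1.62 on the treated arrays), the block from PSPH to POM121 (-1.19 and -1.30) and the block from NPTX2 to CASTOR3P (-1.08 and -1.64). No gene in these 3 blocks was apart as higher in MDSL. ASNS, MCM7 and SBDS, mutated in Shwachman-Diamond syndrome, lie on this chromosome, SBDS with 7.86 in MDSL against 11.10 in HL60, 10.55 in SKM1 and 12.96 in K562. On chromosome 5, 5 of the 6 low blocks were among the first 6 in order, starting with the block from CCDC127 to TENT4A at -0.84. Against HL60, SKM1 and K562 singly that block had -1.17, -0.28 and -1.03, and the block from TARS1 to OXCT1 -1.12, -0.06 and -0.13. Of 44 genes from the commonly deleted 5q regions, 4 (9.09%) were higher and 3 (6.82%) lower, against 4.2% and 4.46% of all genes. Their median was -0.23. RPS14, the ribosomal protein gene of the 5q- syndrome, was at 14.56 in MDSL against 15.30, 14.52 and 14.56 in HL60, SKM1 and K562. Of 17 genes of 7q linked to myeloid neoplasia 1 was lower (5.88%, near the 4.46% of all genes), ZNHIT1 (limma adjusted p = 0.0403). On chromosome 15 a step was seen: the first 7 blocks had medians from -0.53 to 0.11 and the last 8, from FOXB1 on, from 0.31 to 0.86. Arrays measure RNA, and whether the copy number of these regions differs was not tested.

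**Figure D4:**
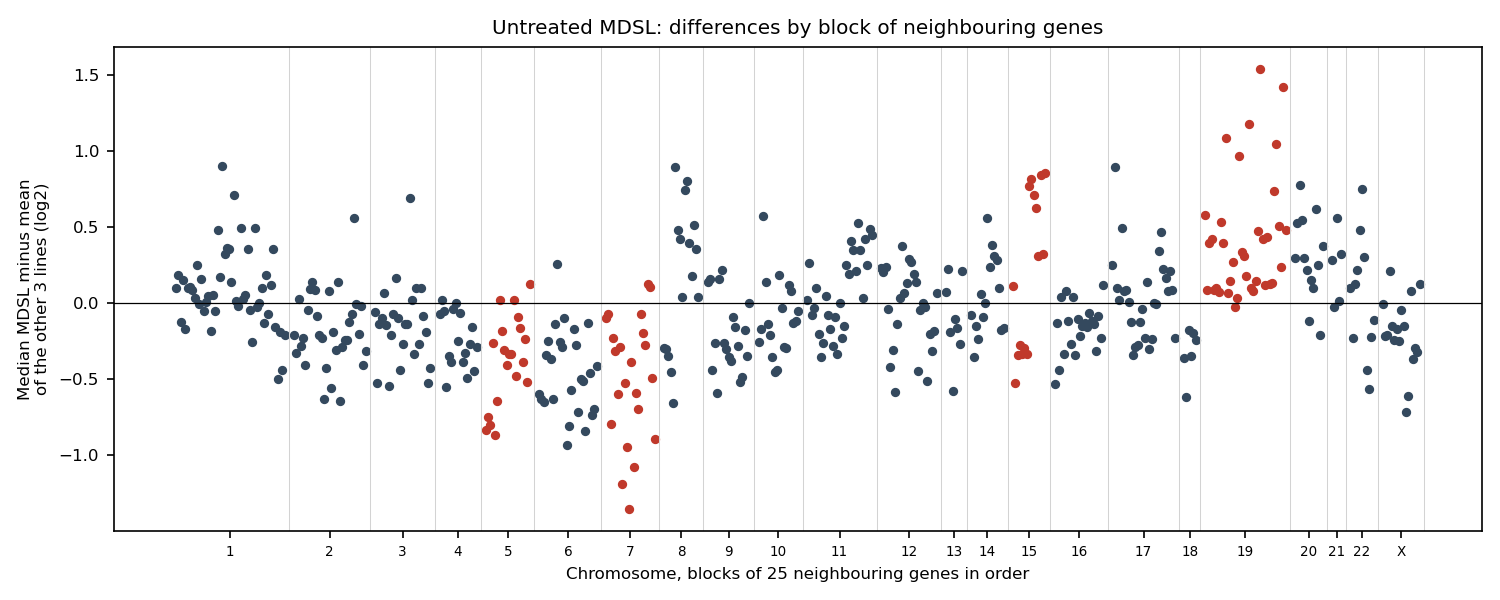
Median log2 difference of untreated MDSL from the mean of the other 3 untreated lines (vertical axis) for 473 blocks of 25 neighbouring genes, set in chromosome order along the horizontal axis with 1 point per block; chromosomes 5, 7, 15 and 19 are red. Chromosome 7 holds the lowest points, down to -1.35, chromosome 6 goes down to -0.93, chromosome 15 steps upward partway along, and chromosome 19 holds the highest points, up to 1.54.

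Chromosome 19 holds many zinc finger genes named ZNF, a number of which encode DNA-binding repressors. Of 237 such genes there, 46 (19.4%, against 4.2% of all genes) were higher and 0 lower in MDSL, with a median of 1.05 log2. Of 255 ZNF genes on other chromosomes 8 were higher and 6 lower with a median of 0.00, and of the 1019 other genes of chromosome 19, 56 were higher and 13 lower with a median of 0.00. ZNF43 was at 12.09 in MDSL against 8.56 in HL60, 9.43 in SKM1 and 8.59 in K562. These medians are differences from the mean of the 3 lines, and chromosome 19 blocks were uneven by line. Against HL60, SKM1 and K562 singly, the block from PINLYP to ZNF180 had 0.66, 1.76 and 1.83. The block from SWSAP1 to ZNF564 had 1.04, 0.57 and 1.02. On the treated arrays 23 of the 237 were higher and 0 lower, against 4.58% and 3.87% of all genes, with a median of 0.71. With the floor at 7.11 the untreated counts were 38 and 0 and after median centring of the arrays 33 and 0. These genes were grouped after the values were seen, and their probe sets may share sequence because the genes arose by duplication.

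Most differences between MDSL and the other lines kept their sign on the treated arrays. Of the 742 higher genes, 734 were above the mean of the 3 other treated lines in treated MDSL, and 400 (53.9%) were apart there, 49.4% of the 810 (4.58%) higher genes on the treated arrays. Of the 789 lower genes, 771 were below that mean and 376 (47.7%) were apart, 54.9% of the 685 (3.87%) lower ones. The genes apart at 4-fold were apart by at least 2-fold on the treated arrays for 195 of 258 higher and 104 of 143 lower. They were also at least 2-fold apart from both resistant HL60 arrays for 241 of 258 and 137 of 143. That last count reuses the untreated MDSL array at a looser cut against derivatives of HL60, so it gives no separate support. Within MDSL, 123 of the 742 higher genes were at least 2-fold higher with OR21 than without and 68 at least 2-fold lower. No gene turned from apart higher to apart lower and 1 turned the other way, PI4K2A, a phosphatidylinositol kinase. It was at 5.45 in untreated MDSL against 8.29, 7.43 and 9.01 in HL60, SKM1 and K562, and at 10.71 in treated MDSL against 8.74, 8.94 and 9.58 in the treated lines. NRG4, a growth factor of the neuregulin family, was at 8.40 in untreated MDSL against 3.97, 6.42 and 3.78 in HL60, SKM1 and K562, and at 5.41 in treated MDSL against 5.47, 6.07 and 3.47 in the treated lines.

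**Figure D5:**
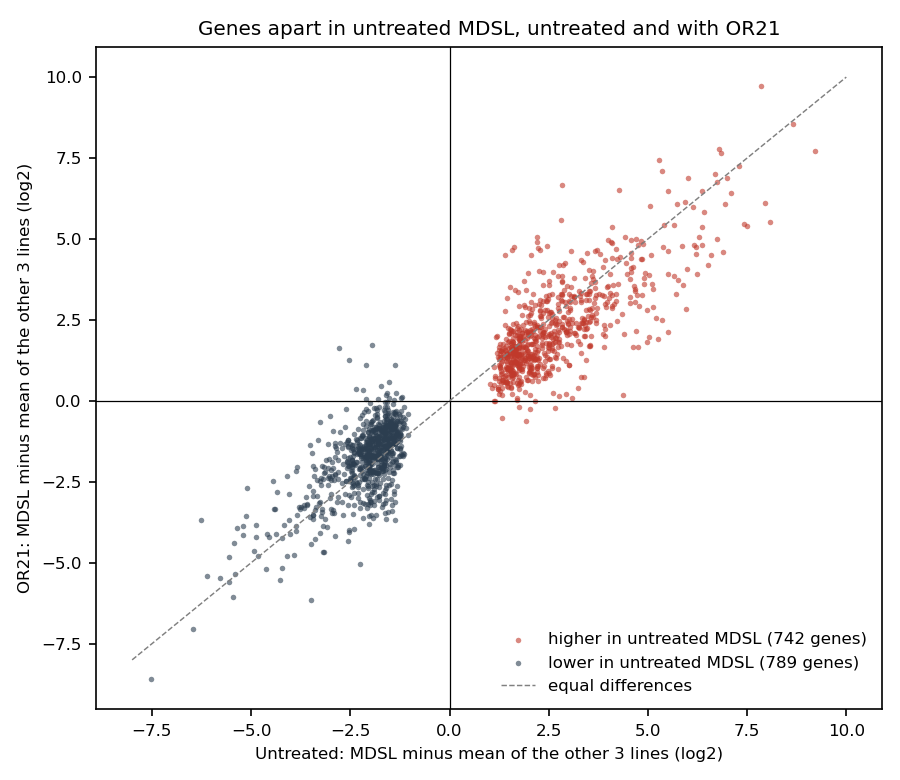
Difference of MDSL from the mean of the other 3 lines for the 742 genes higher (red) and the 789 genes lower (dark blue) in untreated MDSL, 1 point per gene, with untreated arrays on the horizontal and OR21-treated arrays on the vertical axis, both in log2 units; the dashed line marks equal differences. Red points lie above 0 and dark blue points under 0 on the vertical axis, except for 8 red and 18 dark blue ones.

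Promoter sequences from RefSeq (GRCh38.p14) were matched to 14250 of the 17687 genes. They covered 692 of the 789 lower genes (87.7%) and 566 of the 742 higher genes (76.3%), which is under 80%, so the check of promoter content is void for the higher genes. In the 250 upstream bases, 93.8% of the lower genes held at least 10 CpG, against 88.0% of the 6862 genes that were at least 1 log2 over the floor in all 3 other untreated lines, which every lower gene had to be. The median was 21 CpG in both. A GATA motif, AGATAA or TGATAA on either strand, was in 4.91% of the lower genes and 6.60% of that comparison set, against 11.0% of all matched genes. Of the 6 printed promoters, that of FCER1A alone held a match. These are descriptions of sequence and name no bound factor.

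Lists of markers of other cell types were short, so a count of 0 or 1 says little beside the 4.2% of all genes higher and 4.46% lower. In untreated MDSL 2 of 9 B cell markers (22.2%) were higher, CD79A and CD79B, parts of the B cell receptor. CD79A was at 11.49 in MDSL against 7.75 in HL60, 8.36 in SKM1 and 7.31 in K562. Of 18 T and NK cell markers 1 was higher, TRAT1, at 7.78 in MDSL against 4.20, 4.53 and 4.84 in HL60, SKM1 and K562, and of 12 endothelial markers 1, ERG. Summed over the 9 B cell markers the linear intensity was 3757 in MDSL against 607, 771 and 586 in HL60, SKM1 and K562. Most of the MDSL sum was CD79A. The median difference of the list was 0.12 log2, against 0.00 over all genes, and 3 of the 9 were at the floor in all 4 untreated lines. The part of this signal in the results was not tested. None of the 12 epithelial, 11 fibroblast or 10 hepatocyte markers was apart in either direction, and no member of these 6 lists was lower. EPCAM, an epithelial adhesion protein, was under the floor in MDSL (4.18) and HL60 (4.94) but at 12.46 in SKM1 and 13.31 in K562.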

How the data were processed

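The series' value table was used: linear intensities as deposited by the authors, from single-colour biotin-labelled arrays of total RNA (per the labels). The software and normalization are not given in the sources used here. Gene medians ran from 6.63 to 7.05 log2 across the arrays, and values were taken as already normalized. Of 24351 probe-set entries, 17709 were named through the platform annotation, giving 17687 genes; for 20 with several probe sets the brightest was kept. From the deposited intensities log2 values were computed, floored at 5.43 and compared by the 2-fold rule. limma 3.58.1 (R 4.3.3) fitted line and OR21 over 8 arrays with Benjamini-Hochberg adjustment; python 3.11.15, numpy 2.4.6 and pandas 2.3.3 did the rest. Both steps were tested on simulated data. The array number limits precision. Named genes were the 14 widest gaps each way, up to 4 apart members per list, up to 4 genes turned on treated arrays and a set of key genes; others, such as MCM4, MCM5, MKI67, AZU1, PRTN3, CLEC1B, CPA3, ANXA1, ANXA11, SBDS and ZNF43, were picked after their values were seen. Members and lists were chosen with earlier results of these data known. Alternatives were other floors, scalings, dim-gene filters and leaving out a line or array. RefSeq gave gene order and promoters.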

Additional observations from a re-analysis of the deposited data

Results flagged for a closer look

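PI4K2A moved in opposite directions on the untreated and the OR21-treated arrays. The difference of MDSL from the nearest other line was -1.98 log2 on the control arrays and 1.13 log2 on the OR21-treated arrays, below all 3 lines in one state and above all 3 in the other. With 1 array per line and state, that difference was not tested.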

How the results depend on the processing

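No paired analysis was possible because the labels give no replicate numbers and each line and state has 1 array. Of 559 alternative values for counts, list medians, chromosome medians and test counts, 519 stayed within the set margin, 39 moved and 1 reversed. For single genes, of 1883 alternative values 1585 stayed, 129 moved, 141 newly passed limma, 28 no longer passed and 0 reversed. The counts of 742 higher and 789 lower genes were 258 and 143 at 4-fold and 1160 and 1288 leaving out SKM1. The share of calls that were higher was 48.5%, and 42.9% after median centring. Leaving out K562, list medians were 1.60 for IL-3 receptor genes, 0.15 for growth factor receptors, 0.21 for lineage factors, 0.31 for HOXA and partner genes, 1.45 for mast cell genes, 0.26 for erythroid genes, -0.55 for MHC class I and, reversed, -0.16 for primary granule genes, which had 1.38 leaving out HL60; HOXA genes had 1.70 leaving out SKM1. At the floor of 7.11, medians were 0.31 for growth factor receptors, 0.41 for stem genes, 1.08 for mast cell genes and 0.45 for interferon-stimulated genes. Without dim genes they were 2.04 for stem genes, 2.02 for HOXA genes, 5.51 for MHC class II, -1.34 for cancer-testis antigens, -1.01 for epithelial and 0.79 for endothelial markers; fewer genes enter there. At the floor of 7.11, chromosome medians were -0.26 for 6, -0.30 for 7, 0 for 8, 0.015 for 15, 0.052 for 19, 0.037 for 20, 0 for 21 and -0.0026 for X; subtracting background gave 0.14 for 22. The limma counts of 115 and 99 were 410 and 372 with no floor, 391 and 375 without dim genes, 30 and 48 without the OR21-treated HL60 array and, for higher genes, 451 over 6 untreated arrays. Genes at the floor on every array have no spread, and the prior degrees of freedom were 0.41 with the floor and 3.49 with none. Otherwise the cause of these shifts was not tested. Probes near background limit small differences among dim genes.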
